A study of Bos taurus with 30 samples.

Results

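The RAF-MEK-ERK kinase cascade was described here through 5 of its genes, ARAF, BRAF, MAP2K1, MAP2K2 and MAPK3, which were 5 of the 27607 genes counted by RNA sequencing in 30 libraries of bovine endometrial cells. The genes were taken by their names in the authors' tables. They were chosen by their read counts in these libraries, because ARAF counts were far higher in stromal than in epithelial cells while the counts of the other kinases were not, so the difference between cell types of these 5 genes is given as a description with no test. The primary cells were isolated from the uteri of cows that were not pregnant and had reached an early luteal stage, and were cultured in a microfluidic device, with epithelial cells in the upper and stromal cells in the lower chamber, under flow for 72 h. In the glucose experiment the medium held 5 mM or 50 mM glucose. In the insulin experiment the medium held 5 mM glucose with vehicle (acetic acid in phosphate-buffered saline), 1 ng/mL insulin or 10 ng/mL insulin. Each of the 10 groups (2 cell types by 5 conditions) held 3 libraries labelled as biological replicates, and the cells of each chamber were detached with trypsin before RNA extraction. The cells were primary cultures with no sort after detachment, so a library could hold cells of the other chamber.

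The RAF kinases, among them A-RAF and B-RAF, are recruited and activated by GTP-bound RAS at the plasma membrane. Active RAF phosphorylates the dual-specificity kinases MEK1 and MEK2 (MAP2K1 and MAP2K2), which in turn phosphorylate the ERK kinases, among them ERK1 (MAPK3), which act on transcription factors and other kinases. In the endometrium the cascade lies downstream of growth factor receptors and is known for its part in proliferation, and the A-RAF kinase has weaker catalytic activity towards MEK than B-RAF. The cascade is controlled by phosphorylation, which was not measured here; all values below are transcript levels.

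Libraries held 13493503 to 16647701 counted reads in the glucose experiment and 8826470 to 13214728 in the insulin experiment. Levels are read counts divided by the library size (CPM), with library sizes scaled by the trimmed mean of M values, and since gene lengths were not used, CPM values are compared within a gene and not between genes. The chamber labels were checked with marker genes. All 20 stromal markers were called higher in stromal cells in each of the 5 conditions. The 20 epithelial markers were all called higher in epithelial cells in the 3 insulin groups, while 19 were called at 5 mM glucose and 3 at 50 mM glucose. The summed level of the 20 epithelial markers was 7512 to 17542 CPM in epithelial libraries against 20.3 to 1595 CPM in 14 of the 15 stromal libraries. The exception was stromal replicate 3 at 50 mM glucose, which held 5377 CPM of epithelial markers and 24769 CPM of stromal markers where the other stromal libraries held 56294 to 100240 CPM. In that library the epithelial adhesion molecule EPCAM reached 295 CPM and the stromal collagen gene COL1A1 5479 CPM, against 0 to 81.7 and 15382 to 30398 CPM in the other stromal libraries. Keratin KRT18 and vimentin (VIM) stood at 322 and 1527 CPM there. Epithelial replicate 2 at 5 mM glucose also stood apart, with the highest epithelial marker sum, 17542 CPM, against 7512 to 9428 CPM in the other 14 epithelial libraries. Its markers did not all go 1 way. KRT18 stood at 1902 CPM there, but EPCAM at 158 CPM was the lowest of the epithelial libraries and VIM at 1080 CPM the highest.

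ARAF, the gene the choice turned on, was counted at 98.3 to 470 CPM in the 15 epithelial libraries, and at 642 to 3190 CPM in the 15 stromal ones. In epithelial cells its level was 225, 157 and 98.3 CPM in the 3 replicates at 5 mM glucose, and 244, 470 and 125 CPM at 50 mM glucose. In the insulin experiment the epithelial level was 138, 118 and 293 CPM with vehicle, 130, 118 and 270 CPM with 1 ng/mL insulin and 120, 124 and 280 CPM with 10 ng/mL insulin. Epithelial replicate 3 was the highest of the 3 in each insulin group. In stromal cells the level was 1600, 1765 and 2101 CPM at 5 mM glucose, and 1392, 1549 and 642 CPM at 50 mM glucose. With vehicle, 1 ng/mL and 10 ng/mL insulin the stromal level was 1698, 2792 and 2288 CPM, 2446, 2969 and 2700 CPM, and 1907, 3190 and 2407 CPM. Epithelial and stromal values did not overlap in any of the 5 conditions. The lowest stromal value, 642 CPM in the library that also held epithelial markers, was 1.36 times the highest epithelial value, and without that library the lowest of the other 14 stromal values was 2.96 times the highest epithelial one.

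**Figure D1:**
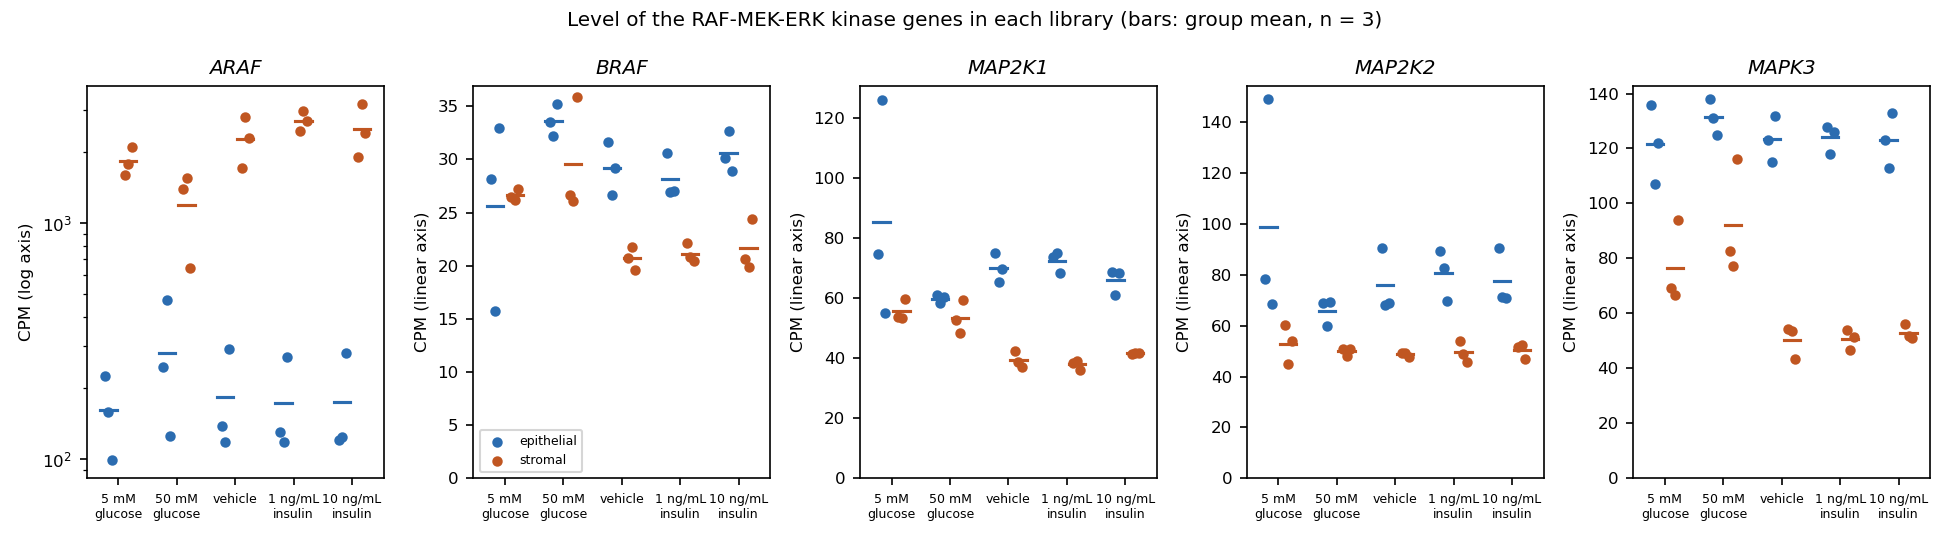
Level in CPM of ARAF (log axis) and of BRAF, MAP2K1, MAP2K2 and MAPK3 (linear axes) in each of the 30 libraries by condition, blue for epithelial and orange for stromal cells, with bars at the mean of 3 libraries. ARAF lay higher in stromal cells in every condition, MAP2K2 and MAPK3 lay lower, and BRAF and MAP2K1 overlapped between cell types in the glucose experiment when all libraries were kept.

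The ratio of the stromal to the epithelial mean of ARAF was 11.4 at 5 mM glucose, 4.26 at 50 mM glucose, 12.3 with vehicle, 15.7 with 1 ng/mL insulin and 14.3 with 10 ng/mL insulin. At 50 mM glucose the ratio was 5.25 with the stromal mean taken over the 2 libraries other than replicate 3. The stromal library was the higher one in 15 of 15 pairs of the same condition and replicate number. At the same conditions, the share of all protein-coding genes called different between the cell types was 21.5% at 5 mM glucose, 17.6% at 50 mM glucose, 55.9% with vehicle, 59.4% with 1 ng/mL insulin and 54.9% with 10 ng/mL insulin (edgeR quasi-likelihood test, adjusted p under 0.05 and a log2 fold change beyond 0.1). Since ARAF was picked for this contrast, nothing is read from its place against that background. Ordered by mean level, the groups ran from stromal cells with 1 ng/mL insulin (2705 ± 261 CPM, SD, n = 3) to epithelial cells at 5 mM glucose (160 ± 63.3 CPM). Neighbouring groups in that order overlapped except stromal cells at 5 mM against 50 mM glucose, and stromal against epithelial cells at 50 mM glucose.

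Within a library, ARAF ranked between place 29 and 133 by count among all counted genes in stromal cells (median 39), or 29 and 70 without stromal replicate 3 at 50 mM glucose, and between 202 and 1617 in epithelial cells (median 1110). For each BRAF read, stromal libraries held 17.9 to 161 ARAF reads (median 92.5) and epithelial libraries 2.98 to 14.6 (median 4.41). The 17.9 came from the library with epithelial markers, and the lowest of the other 14 stromal libraries was 52.1. These ratios were not corrected for the lengths of the genes. Whether reads of genes that overlap ARAF entered its count, and so its rank, was not tested. The ratios show how far the balance of reads counted for ARAF and BRAF differed between cell types within the same libraries. In bulk samples, fewer cells of a type and less RNA per cell cannot be told apart.

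The ARAF level was higher in the epithelial libraries that held more stromal marker reads. Over the 15 epithelial libraries, log2 ARAF and the log2 summed level of the 20 stromal markers had a Pearson r of 0.855, given as a description because the labels do not say which libraries share an animal and all values share the library scaling. The 3 epithelial insulin libraries of replicate 3, with 270 to 293 CPM of ARAF, held 4250 to 4716 CPM of stromal markers, while those of replicates 1 and 2, with 118 to 138 CPM of ARAF, held 1488 to 2365 CPM. Over the 15 stromal libraries r with the stromal markers was 0.725, and it was 0.187 without stromal replicate 3 at 50 mM glucose. With the epithelial markers r was -0.791 over the stromal libraries, and -0.707 without that library. The part of stromal RNA in the epithelial ARAF level was not tested. The summed levels of 6 endothelial markers (5 of them named) and of 5 smooth muscle markers were 2.75 to 82.1 and 19.2 to 4413 CPM over all libraries, and the 2 named of 6 immune markers summed to 2.17 to 17.2 CPM.

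**Figure D2:**
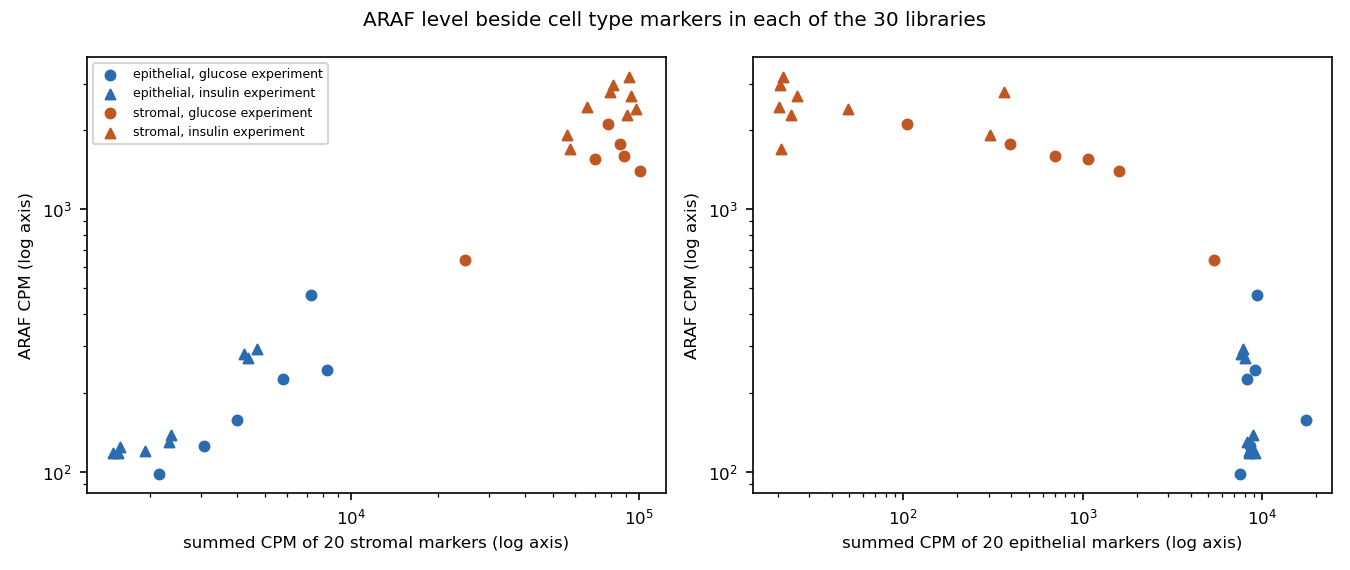
ARAF level (CPM, log axis) against the summed CPM of 20 stromal markers (left) and of 20 epithelial markers (right, log axes), 1 point per library, circles for the glucose and triangles for the insulin experiment. Epithelial libraries with more stromal marker reads held more ARAF reads, and the stromal library with 24769 CPM of stromal and 5377 CPM of epithelial markers had the lowest stromal ARAF level, 642 CPM.

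BRAF, the RAF kinase with the strongest basal activity, did not share the ARAF pattern. Its epithelial level was 28.2, 15.7 and 33.0 CPM at 5 mM glucose, and 33.5, 32.2 and 35.2 CPM at 50 mM. Its stromal level was 26.5, 26.2 and 27.2 CPM at 5 mM glucose, and 26.7, 26.1 and 35.9 CPM at 50 mM. The cell types overlapped at both glucose concentrations, in each case through 1 library that stood apart in its markers. The 15.7 CPM at 5 mM came from epithelial replicate 2 and the 35.9 CPM at 50 mM from stromal replicate 3, and without them stromal values were below epithelial ones at both concentrations. With vehicle, BRAF was at 31.6, 26.7 and 29.2 CPM in epithelial and 20.7, 21.8 and 19.6 CPM in stromal cells, without overlap. The ratio of epithelial to stromal means was 1.41 with vehicle, 1.33 with 1 ng/mL insulin and 1.41 with 10 ng/mL insulin. At 5 mM glucose the mean log2 difference, stromal minus epithelial, was 0.13, and it changed sign to -0.18 without replicate 2 and to -0.06 when plain library totals replaced the scaled ones.

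The MEK genes both had a lower mean in stromal than in epithelial cells in all 5 conditions. With vehicle, MAP2K1 was at 75.0, 65.2 and 69.6 CPM in epithelial and 42.2, 38.6 and 37.0 CPM in stromal cells. The epithelial mean was 1.78 times the stromal one with vehicle, 1.91 times with 1 ng/mL and 1.59 times with 10 ng/mL insulin, where the groups did not overlap. At 5 mM glucose MAP2K1 was at 74.5, 126 and 55.1 CPM in epithelial and 53.8, 53.2 and 59.5 CPM in stromal cells, and at 50 mM glucose at 61.0, 58.2 and 60.2 against 52.8, 48.3 and 59.2 CPM. The groups overlapped at both glucose concentrations, and 1 of the 15 pairs, replicate 3 at 5 mM glucose, had the higher value in stromal cells. The 59.2 CPM came from the stromal library with epithelial markers, and without it the groups at 50 mM did not overlap.

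MAP2K2 was higher in epithelial cells in 15 of 15 pairs and did not overlap between the cell types in any condition. With vehicle it was at 90.6, 68.1 and 69.0 CPM in epithelial and 49.3, 49.4 and 47.7 CPM in stromal cells, a ratio of means of 1.56. At 5 mM glucose it was at 78.2, 149 and 68.7 CPM in epithelial and 60.1, 44.8 and 53.9 CPM in stromal cells, and at 50 mM glucose at 68.8, 59.8 and 69.2 against 50.8, 48.0 and 50.8 CPM. The 126 CPM of MAP2K1 and the 149 CPM of MAP2K2 were the highest values of these genes in any library and came from the epithelial library with the highest epithelial marker sum. For each MAP2K1 read there were 0.991 to 1.32 MAP2K2 reads in epithelial and 0.842 to 1.40 in stromal libraries. The balance of the MEK genes thus overlapped between cell types. The share of all genes that kept apart between cell types as MAP2K2 did is not given here. Separations of MAP2K2 and the other kinases are therefore description only. Of all protein-coding genes, 17.6% (50 mM glucose) to 59.4% (1 ng/mL insulin) were called different between cell types.

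MAPK3, which encodes ERK1, had the largest ratio of epithelial to stromal means among the 4 genes other than ARAF in the insulin experiment. With vehicle it was at 123, 115 and 132 CPM in epithelial and 54.4, 53.7 and 43.3 CPM in stromal cells. The ratio of means was 2.44 with vehicle, 2.45 with 1 ng/mL and 2.33 with 10 ng/mL insulin. In the glucose experiment the epithelial level was similar, 136, 107 and 122 CPM at 5 mM and 138, 131 and 125 CPM at 50 mM, but the stromal level was higher than in the insulin experiment. Stromal cells held 69.1, 66.8 and 93.9 CPM at 5 mM and 82.8, 77.2 and 116 CPM at 50 mM, and the ratio of epithelial to stromal means was 1.59 and 1.43. The 116 CPM came from the library with epithelial markers, and without it the ratio at 50 mM was 1.64. The lowest stromal value at 5 mM glucose was above the highest stromal value of the insulin experiment, 56.0 CPM. The experiments were separate and their difference was not tested.

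The conditions were compared within each cell type to ask whether glucose or insulin changed the transcripts of the cascade. In 40 tests (5 genes by 8 comparisons; edgeR quasi-likelihood test with the replicate number as a block, Benjamini-Hochberg adjustment over all genes tested) 0 were called, and the smallest adjusted p was 0.696. Of the 40 tests, 4 had an unadjusted p under 0.05, and DESeq2 also called 0. Over all protein-coding genes the share with an unadjusted p under 0.05 was, in epithelial cells, 1.54% for glucose, 2.87% for 1 ng/mL and 6.78% for 10 ng/mL insulin against vehicle, and 4.29% for 10 against 1 ng/mL insulin. In stromal cells the same shares were 4.96%, 5.03%, 2.73% and 3.68%. The 4 were stromal ARAF with each insulin dose, stromal MAPK3 with glucose and epithelial MAP2K1 at 10 against 1 ng/mL insulin. The background was similarly low. The share of protein-coding genes called was 0% in 6 of the 8 comparisons, 0.113% for 10 ng/mL insulin against vehicle in epithelial cells and 0.0244% for 10 against 1 ng/mL insulin in stromal cells. The comparisons of each insulin dose with vehicle share the vehicle libraries.

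For glucose, ARAF had the widest estimates. In epithelial cells the ARAF level was higher at 50 mM than at 5 mM glucose in 3 of 3 pairs, with a log2 fold change of 0.67 (SE 0.345, 95% interval -0.19 to 1.52, edgeR adjusted p = 0.804). The summed stromal markers of the same libraries were 5794, 4009 and 2156 CPM at 5 mM and 8211, 7227 and 3083 CPM at 50 mM glucose, also higher in 3 of 3 pairs, and their part in the ARAF value was not tested. Without replicate 2 the log2 fold change was 0.22. In stromal cells ARAF was lower at 50 mM in 3 of 3 pairs, with a log2 fold change of -0.69 (SE 0.383, 95% interval -1.73 to 0.36, edgeR adjusted p = 0.696). There the summed epithelial markers were 700, 395 and 105 CPM at 5 mM and 1595, 1074 and 5377 CPM at 50 mM. Without replicate 3, whose 50 mM library held the 5377 CPM, the log2 fold change was -0.19.

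The other 4 genes had log2 fold changes for glucose of -0.07 to 0.26 in stromal cells and -0.51 to 0.44 in epithelial cells. Stromal BRAF, at 0.14, became 0.01 without replicate 3. Stromal MAPK3 was higher at 50 mM glucose in 3 of 3 pairs, by 0.26 on the log2 scale (SE 0.0937, unadjusted p = 0.0450 and adjusted p = 0.696 in edgeR). Without replicate 3 this value was 0.24. Epithelial MAP2K1 and MAP2K2 had log2 fold changes of -0.44 and -0.51 that became -0.10 and -0.11 without replicate 2, the pair with the 126 and 149 CPM. Epithelial BRAF, at 0.44, became 0.16 without the same pair. Across the 8 glucose tests on the 4 genes, the 95% intervals reached from -1.31 to 1.14.

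For insulin, ARAF in stromal cells was the value nearest to a call. It was higher with 1 ng/mL insulin than with vehicle in 3 of 3 pairs, with a log2 fold change of 0.28 (SE 0.0809, 95% interval 0.11 to 0.46, unadjusted p = 0.00432 and adjusted p = 0.766 in edgeR). Vehicle and insulin values overlapped, since the 2792 CPM of vehicle replicate 2 lay above 2446 and 2700 CPM with insulin. The call depended on the setting, as the adjusted p was 0.0372 without replicate 2 (log2 fold change 0.38) and 0.00303 when every gene with at least 1 count entered the test. The summed stromal markers were 57500, 79055 and 90651 CPM with vehicle and 65860, 81257 and 93379 CPM with 1 ng/mL insulin, higher in 3 of 3 pairs. The summed epithelial markers were 20.8, 365 and 23.7 CPM with vehicle and 20.3, 20.6 and 25.6 CPM with 1 ng/mL insulin. The part of either marker set in the result was not tested. The authors of the study list ARAF among the transcripts that the lower insulin dose changed in stromal cells. Their cut-offs were a P value and a fold change, and the paper does not say whether the P value was adjusted. Here edgeR with all replicates and the filter on low counts did not call ARAF in that comparison, and neither did DESeq2. The cause of this difference from the study was not tested. With 10 ng/mL insulin stromal ARAF was 0.14 above vehicle on the log2 scale (SE 0.0582, 95% interval 0.01 to 0.27, adjusted p = 0.999 in edgeR), higher in 3 of 3 pairs. In epithelial cells the ARAF values were -0.07 and -0.06 for 1 and 10 ng/mL insulin against vehicle, with 95% intervals of -0.17 to 0.02 and -0.16 to 0.03.

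The other 4 genes stayed within narrow bounds in the insulin experiment. Their 24 log2 fold changes lay between -0.13 and 0.13, and the 95% intervals between -0.26 and 0.30. The lowest, MAP2K1 in epithelial cells at 10 against 1 ng/mL insulin, had an unadjusted p of 0.0432 and an adjusted p of 0.983 in edgeR, with levels of 73.7, 75.1 and 68.3 CPM at 1 ng/mL and 68.5, 60.9 and 68.2 CPM at 10 ng/mL.

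**Figure D3:**
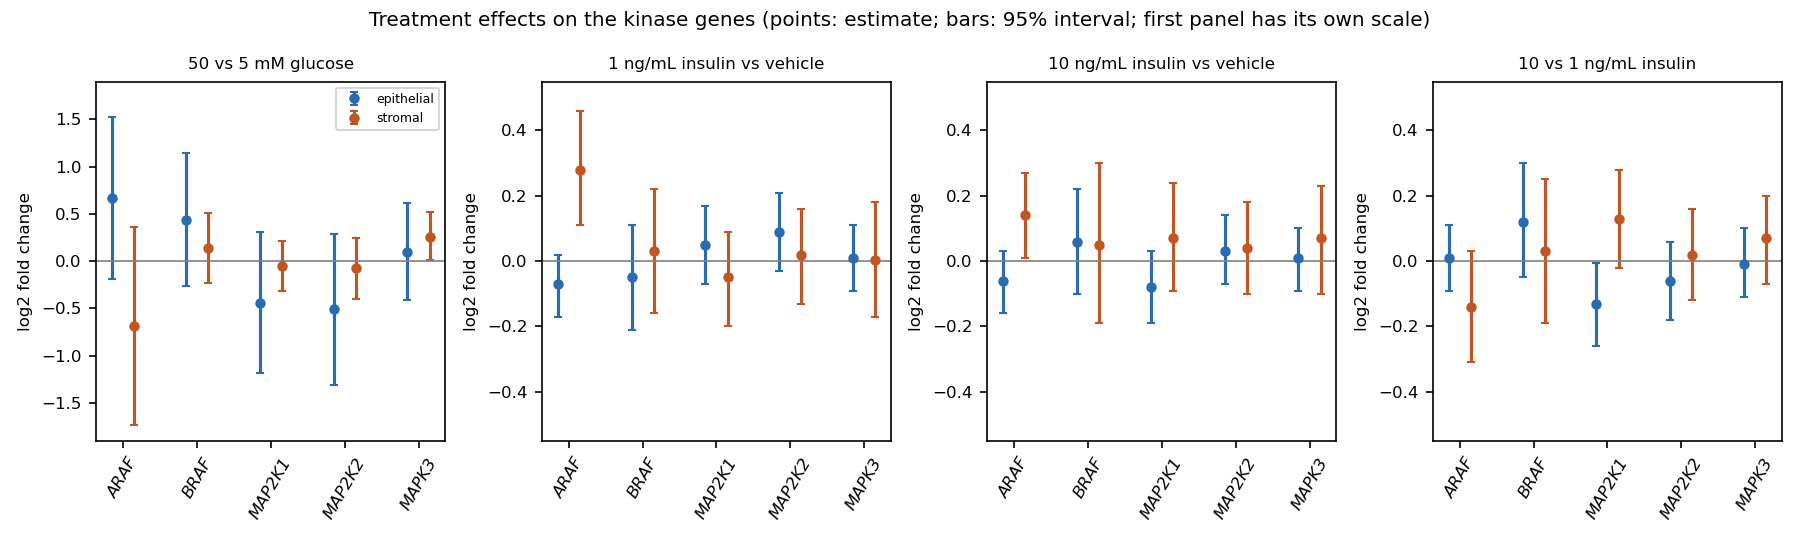
Log2 fold change of the 5 kinase genes in each treatment comparison, blue for epithelial and orange for stromal cells, with 95% intervals from the edgeR fit; the glucose panel has a wider scale than the insulin panels. Glucose estimates of ARAF lay at 0.67 in epithelial and -0.69 in stromal cells with intervals across 0, and in the insulin panels the stromal ARAF value of 0.28 at 1 ng/mL was the largest.

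Whether the cell types responded differently was asked with the interaction of cell type and treatment, in 20 tests on the 5 genes. edgeR and DESeq2 both called 0, and 3 tests in edgeR had an unadjusted p under 0.05. The share of protein-coding genes called was 0% for glucose, 0.659% for 1 ng/mL insulin against vehicle, 0% for 10 ng/mL insulin against vehicle and 0.728% for 10 against 1 ng/mL insulin, and the share with an unadjusted p under 0.05 was 7.65%, 6.69%, 4.05% and 6.60%. ARAF had an interaction of -1.34 on the log2 scale for glucose (SE 0.584, 95% interval -2.71 to 0.02, adjusted p = 0.663 in edgeR). Without replicate 3, the pair with the stromal library that held epithelial markers, it was -1.0. For 10 ng/mL insulin against vehicle the ARAF interaction was 0.21 (SE 0.0790, 95% interval 0.03 to 0.39, unadjusted p = 0.0253 and adjusted p = 1.00 in edgeR).

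ARAF lies on the X chromosome. In the RefSeq annotation of assembly ARS-UCD2.0, used for gene order and not for coordinates because the sources name the Ensembl release behind the files but not its assembly, ZNF41 precedes it and SYN1, TIMP1, CFP, ELK1 and UXT follow it. The spans of SYN1 and ARAF overlap there, and TIMP1 and 1 other gene lie inside the span of SYN1. No counted gene could be paired with the name TIMP1, so it was not analysed here, and whether reads from genes in that interval entered the ARAF count was not tested. The library kit kept the strand of each RNA, and the strand setting of the counting was not given in the sources used here, so the ARAF count carries the uncertainty of overlapping genes.

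Of the genes near ARAF, 10 were analysed, and ZNF41 was not analysed here. In each condition the stromal to epithelial ratio of ARAF was above those of the 10. ARAF was chosen for its difference between cell types, so nothing is read from that order. ELK1, an ETS-family transcription factor that ERK phosphorylates, had an epithelial range of 10.5 to 16.6 CPM and a stromal range of 19.5 to 32.7 CPM. It was the 1 of the 10 called higher in stromal cells in all 5 conditions, against 8.39% of protein-coding genes tested. Its log2 fold change was 1.13 with vehicle (SE 0.127, adjusted p = 0.00270 in edgeR) and 0.84 to 1.17 over the conditions, with the highest adjusted p, 0.0495, at 5 mM glucose, and the stromal mean was 1.74 to 2.21 times the epithelial one. SYN1, a synaptic vesicle protein gene, ranged from 0 to 2.59 CPM over epithelial libraries and from 1.32 to 8.88 CPM over stromal ones and was called higher in stromal cells at 5 mM glucose (log2 fold change 2.53, adjusted p = 0.0318 in edgeR) and with 1 ng/mL insulin (1.85, adjusted p = 0.0284). CFP, which encodes the complement factor properdin, was called higher in stromal cells in the 3 insulin groups at 1.72 to 2.33 CPM, and NDUFB11, a complex I subunit, in the same 3 groups with ratios of 1.46 or more. The ubiquitin-activating enzyme gene UBA1 and the kinase gene CDK16 were not called in any condition, with ratios of 0.880 to 1.21 and 0.907 to 0.984. USP11, RBM10, UXT and ZNF182 had ratios of 0.564 to 1.06. Of the 10, 3, 4 and 3 were called higher in stromal cells with vehicle, 1 ng/mL and 10 ng/mL insulin. In the same groups 2, 1 and 1 were called lower. Over all protein-coding genes, 27.6% to 29.5% were called higher and 27.3% to 29.9% lower in these groups. At 5 mM and 50 mM glucose 2 and 1 were called higher and 0 lower, against 10.7% and 11.0% of protein-coding genes higher.

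**Figure D4:**
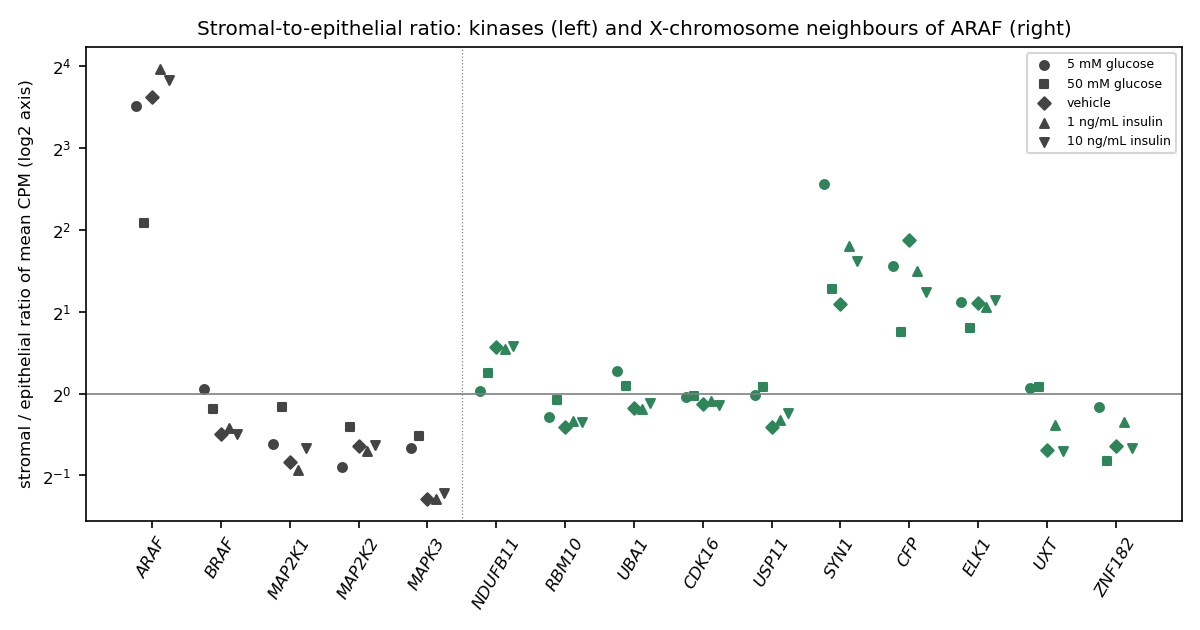
Ratio of the stromal to the epithelial mean CPM (log2 axis) for the 5 kinase genes (left of the dotted line) and for 10 X-chromosome neighbours of ARAF (right), 1 symbol per condition, each from means of 3 libraries. ARAF ratios lay between 4.26 and 15.7, ELK1 ratios between 1.74 and 2.21, and those of the other 4 kinases between 0.409 and 1.04.

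The genes whose levels were most like that of ARAF were named by the Pearson correlation of log2 levels. Over all 30 libraries, among 8932 genes with a mean of at least 10 CPM, these were PTPRM (r = 0.989), MYOC (0.988), TBX18 (0.987), PDCD1 (0.986) and SHANK1 (0.986), and each was higher in stromal cells in 15 of 15 pairs. A correlation over both cell types mostly follows the difference between them. Within the 15 stromal libraries, after subtraction of the group means, the most similar were C29H11orf24 (r = 0.967), CMTM3 (0.965), ZEB2 (0.957), FKBP14 (0.953) and CAVIN1 (0.953) among 8591 genes. ELK1 took place 255 in the first list (r = 0.949) and place 40 in the second (r = 0.891). For the other 4 kinases, r with ARAF over the 30 libraries was between -0.887 for MAPK3 and -0.581 for BRAF. The kinases were chosen for their difference from ARAF between cell types, so nothing is read from these r values. Within the stromal libraries, after subtraction of the group means, r was -0.147 for MAP2K2, -0.507 for MAPK3, -0.543 for MAP2K1 and -0.634 for BRAF. These values describe the libraries and share the library scaling and, within stromal cells, the library with epithelial markers.

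Other genes of the pathway around the cascade were examined in lists ordered by role, with 12 genes of other MAP kinase modules. The lists held 89 genes in all, of which 88 were named in the files. Between cell types, 27 were called higher in stromal and 26 higher in epithelial cells with vehicle, 25 and 32 with 1 ng/mL insulin, and 25 and 29 with 10 ng/mL insulin. At 5 mM glucose 8 and 10 were called, and at 50 mM glucose 8 and 7. The counts at 50 mM rested on single pairs. They were 15 and 15 without replicate 3, the pair with the stromal library that held epithelial markers, and 0 and 0 without replicate 1. At 5 mM glucose 5 were called higher in stromal cells without replicate 3, and with 10 ng/mL insulin 19 were called higher in epithelial cells without it. Over all protein-coding genes with vehicle, 27.8% were called higher in stromal and 28.2% in epithelial cells. With 1 ng/mL insulin these shares were 29.5% and 29.9%, with 10 ng/mL insulin 27.6% and 27.3%, at 5 mM glucose 10.7% and 10.8%, and at 50 mM glucose 11.0% and 6.57%. The median log2 fold change of the 88 was -0.06 with vehicle against 0.0022 over all protein-coding genes tested. Across the 5 conditions 7 were called higher in stromal cells every time, 6 were called higher in epithelial cells every time, and 0 were called in both directions. Of the 12475 protein-coding genes tested in all 5 conditions, 8.39% were called higher in stromal and 4.94% higher in epithelial cells every time.

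Among the 19 receptors and adaptors, 6 were called higher in stromal and 7 in epithelial cells with vehicle. The PDGF receptor genes PDGFRB and PDGFRA, which are also on the stromal marker list, were at 525 ± 76.9 and 668 ± 133 CPM (SD, n = 3) in stromal and 26.0 ± 23.6 and 45.7 ± 48.5 CPM in epithelial cells (log2 fold changes 4.78 and 4.43, edgeR adjusted p = 0.00595 and 0.00349). MET, the hepatocyte growth factor receptor, and ERBB2 were higher in epithelial cells, at 697 ± 123 against 71.0 ± 39.0 CPM and 160 ± 28.3 against 35.3 ± 3.77 CPM. Their log2 fold changes, stromal minus epithelial, were -3.43 and -2.14 (edgeR adjusted p = 0.00171 and 0.000899). Of the 12 RAS proteins and regulators, 3 were higher in stromal and 2 in epithelial cells, and MRAS, a RAS-family GTPase that acts with SHOC2 on RAF, was at 161 ± 17.3 against 11.9 ± 5.97 CPM (log2 fold change 3.87, edgeR adjusted p = 0.00158).

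Of the 14 scaffolds and RAF-binding proteins, 2 were called higher in stromal and 4 in epithelial cells with vehicle. KSR2, a scaffold that binds RAF, MEK and ERK, had 22, 53 and 53 reads in the epithelial and 0 reads in each of the 3 stromal vehicle libraries. Of the 20 ERK substrates and target genes, 6 were higher in stromal and 7 in epithelial cells. The kinase gene RPS6KA1, which encodes the ERK substrate RSK1, was at 60.7 ± 6.78 CPM in epithelial and 7.57 ± 3.09 CPM in stromal cells (log2 fold change -3.02, edgeR adjusted p = 0.00128), opposite in direction to ELK1.

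Feedback inhibitors and phosphatases fell on both sides, with 4 of 11 named genes called higher in each cell type with vehicle. DUSP4, a nuclear phosphatase of ERK, was at 95.2 ± 27.0 CPM in epithelial and 1.70 ± 1.28 CPM in stromal cells (log2 fold change -5.83, edgeR adjusted p = 0.00138). SPRY2, an inhibitor of receptor signalling to RAS, was at 72.7 ± 24.6 against 11.9 ± 2.54 CPM. In stromal cells RASA3, a GTPase-activating protein, and SPRED1, which recruits neurofibromin to RAS, were the higher ones, at 15.0 ± 3.11 against 2.17 ± 2.12 CPM and 77.4 ± 7.64 against 34.3 ± 3.91 CPM. In the 12 genes of other MAP kinase modules (JNK, p38 and ERK5 with their MAP2Ks), 6 were called higher in stromal and 2 in epithelial cells with vehicle. Their median log2 fold change was 0.53, against 0.0022 over all protein-coding genes. Beside the counts of every list by role with vehicle stand the shares of all protein-coding genes, 27.8% called higher in stromal and 28.2% in epithelial cells.

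**Figure D5:**
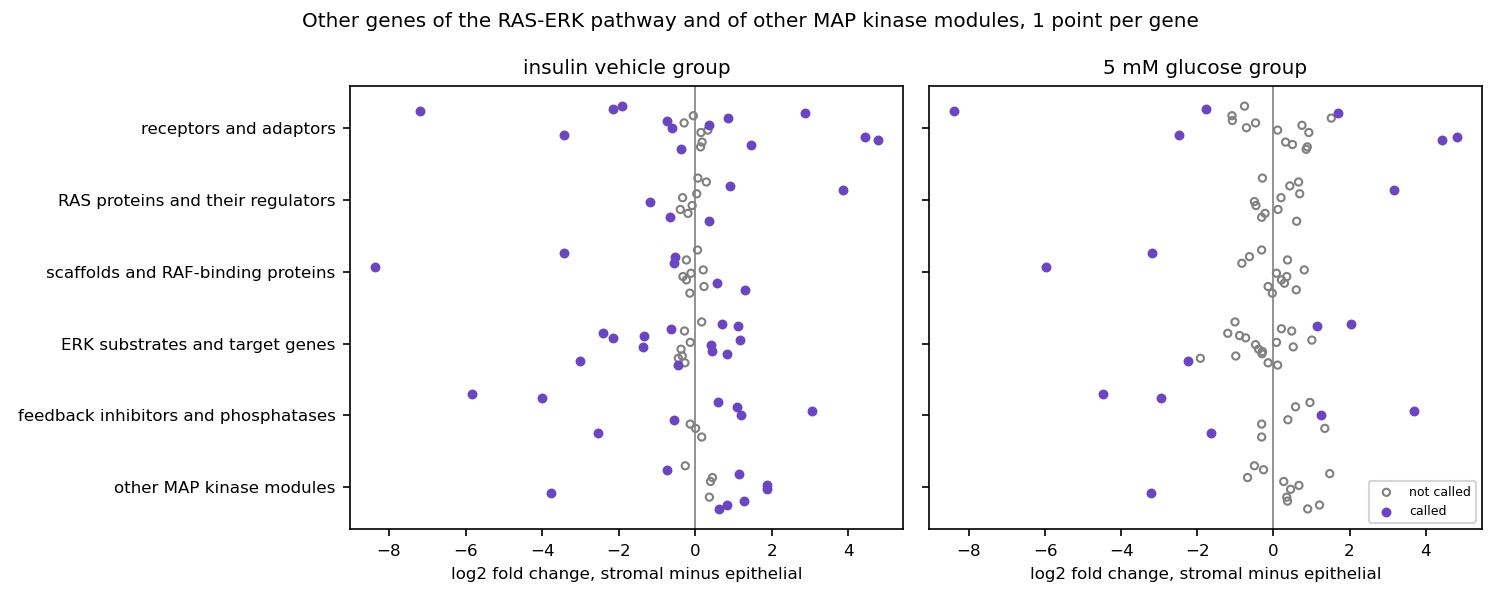
Log2 fold change, stromal minus epithelial, of the listed genes other than the 5 kinases, 1 point per gene in rows by role, in the vehicle group (left) and at 5 mM glucose (right); filled points were called by edgeR. Called genes lay on both sides of 0, 27 higher in stromal and 26 in epithelial cells with vehicle.

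In the 8 treatment comparisons edgeR called 0 of the 88 named genes. Of its 697 tests on them, 37 (5.31%) had an unadjusted p under 0.05. DESeq2 called 1, ERBB3, for glucose in stromal cells (log2 fold change 7.30, adjusted p = 0.0108), where it had 292, 1 and 3 reads at 5 mM and 683, 256 and 3892 reads at 50 mM, the 3892 in the library that held epithelial markers. In the edgeR interaction tests 1 gene, ERBB3, a receptor of the epidermal growth factor family that signals as a partner of ERBB2, was called for 1 ng/mL insulin against vehicle (-3.67, SE 0.603, edgeR adjusted p = 0.00531) and for 10 against 1 ng/mL insulin (3.85, SE 0.481, adjusted p = 0.000823). The first of these calls was lost without replicate 1, without replicate 2 and without the block, and the second without the block. Its epithelial level was 250 to 318 CPM in all 9 insulin libraries. In stromal cells it was counted with 4, 93 and 3 reads with vehicle, 1, 1 and 6 reads with 1 ng/mL insulin, and 125, 3 and 15 reads with 10 ng/mL insulin. The 93 and 125 reads came from the stromal insulin libraries with the most epithelial marker reads, 365 and 306 CPM against 20.3 to 49.2 CPM in the other 7. The part of epithelial RNA in the ERBB3 values was not tested.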

How the data were processed

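RNA of epithelial and stromal cells was sequenced on a NextSeq as single-end reads from stranded NuGEN Encore libraries. The authors trimmed reads with cutadapt, aligned them uniquely with Rsubread to the Ensembl release 96 cow genome and counted them per gene with featureCounts. The values used are the raw read counts the authors deposited, 1 table per experiment. The 13 tables of the authors' own comparisons hold DESeq2 fold changes and p-values, which were not used; gene names and biotypes were read from them (14951 names).

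Each comparison was fitted on its own libraries with edgeR 4.0.16 in R 4.3.3 (TMM scaling, filterByExpr, glmQLFit and glmQLFTest), with the replicate number as a block because the study's methods state a paired sample design. p-values were adjusted by Benjamini-Hochberg over all genes tested, and a gene was called at an adjusted p under 0.05 and a log2 fold change beyond 0.1. Samples of the same number correlated in their deviations from the group means by 0.161 to 0.909 in 21 of 24 treatment pairs and by -0.426 to 0.099 in the other 3, all stromal insulin pairs. The labels call the replicates biological and name no animal, so p-values measure the spread between these samples. The procedure was tested on simulated data. The 5 genes and all gene lists were chosen with earlier results of these data known. Named genes were the 5 kinases, the X-chromosome neighbours, the 5 genes most like ARAF by each measure, the 2 most different called genes of each list and direction that were called in all 5 conditions, listed genes called in a treatment or interaction test, and KRT18, EPCAM, VIM and COL1A1; some genes under this rule are not reported here. Alternatives were no replicate block, RLE scaling, no filter on low counts, DESeq2 1.42.0, each replicate left out, 1 fit for all insulin libraries, plain totals for levels, and a lower level minimum or Spearman's rho for the genes most like ARAF.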

Additional observations from a re-analysis of the deposited data

Results flagged for a closer look

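Of the interaction tests, 3 are given here because every pair of replicates moved one way in epithelial cells and the other way in stromal cells. None was called in edgeR with the filter on low counts. ARAF was higher at 50 mM glucose in 3 of 3 epithelial pairs and lower in 3 of 3 stromal pairs, an interaction of -1.34 on the log2 scale (SE 0.584, unadjusted p = 0.0522 and adjusted p = 0.663 in edgeR). With 1 replicate left out the values were -1.89 without replicate 1, -1.16 without replicate 2 and -1.0 without replicate 3. Stromal replicate 3 at 50 mM glucose held 5377 CPM of epithelial markers, and the epithelial libraries at 50 mM held more stromal marker reads than their pairs at 5 mM.

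ARAF was higher with 1 ng/mL insulin than with vehicle in 3 of 3 stromal pairs and lower in 3 of 3 epithelial pairs, an interaction of 0.34 (SE 0.111, unadjusted p = 0.00718 and adjusted p = 0.359 in edgeR). It was called when every gene with at least 1 count was tested (0.36, edgeR adjusted p = 0.00280). In the same interaction 15 of the 20 epithelial markers were called, with a median log2 value of -3.89 over the 20. Stromal sums of these markers were 20.8, 365 and 23.7 CPM with vehicle and 20.3, 20.6 and 25.6 CPM with 1 ng/mL insulin. The large difference lay in replicate 2 alone. MAP2K1 was higher at 10 than at 1 ng/mL insulin in 3 of 3 stromal pairs and lower in 3 of 3 epithelial pairs, an interaction of 0.27 (SE 0.0980, unadjusted p = 0.0150 and adjusted p = 0.469 in edgeR). The stromal levels of MAP2K1 were 38.5, 39.1 and 36.0 CPM at 1 ng/mL and 41.2, 41.8 and 41.6 CPM at 10 ng/mL insulin, without overlap. In this interaction 15 of the 20 epithelial markers were called in the positive direction, with a median log2 value of 3.83 over the 20. Their stromal sums with 10 ng/mL insulin were 306, 21.5 and 49.2 CPM, so the largest difference lay in replicate 1. The part of epithelial RNA in the ARAF and MAP2K1 interactions was not tested.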

How the results depend on the processing

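Without the replicate block the number of the 5 kinases called stayed at 0 in all 12 treatment and interaction comparisons, while the listed genes called fell from 1 to 0 in the 2 interactions that called ERBB3 and, at 50 mM glucose, from 8 to 3 higher in stromal and from 7 to 2 higher in epithelial cells. When every gene with at least 1 count was tested, 1 of the 5, ARAF, was called for 1 ng/mL insulin against vehicle in stromal cells (0.28, adjusted p = 0.00303) and in its interaction (0.36, adjusted p = 0.00280). In that setting the listed genes called were 2 and 1 in the stromal comparisons of 1 ng/mL with vehicle and 10 with 1 ng/mL insulin, 4 and 3 in their interactions, and 11 higher in epithelial cells at 50 mM glucose. DESeq2 called 13 listed genes higher in stromal cells at 5 mM glucose and 13 in each direction at 50 mM glucose, 1 for glucose in stromal cells and 1 in its interaction, and 0 in the interactions of 1 ng/mL with vehicle and of 10 with 1 ng/mL insulin. The cause of these differences was not tested.

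Plain totals shifted all genes by -0.18 (5 mM glucose) to -0.06 (vehicle) on the log2 scale, stromal minus epithelial. With plain totals and 1 ng/mL insulin the log2 level difference was -0.51 for BRAF, -1.03 for MAP2K1, -0.79 for MAP2K2 and -1.39 for MAPK3, against -0.41, -0.93, -0.70 and -1.29 with scaled totals. At 50 mM glucose MAP2K2 stood at -0.50 against -0.40, and RLE scaling gave -0.92 for MAP2K1 with 1 ng/mL insulin. The direction of the ARAF level held under each scaling and each replicate left out.

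Leaving out 1 replicate at a time changed the sign of the differences below, none of which was called in the fit with all replicates. In epithelial cells the ranges were -0.02 to 0.08 for MAP2K1 and -0.02 to 0.05 for MAPK3 (1 ng/mL insulin against vehicle), -0.03 to 0.13 for BRAF and -0.0015 to 0.02 for MAPK3 (10 ng/mL against vehicle), and -0.02 to 0.07 for ARAF, -0.09 to 0.02 for MAP2K2 and -0.05 to 0.02 for MAPK3 (10 against 1 ng/mL). In stromal cells they were -0.07 to 0.01 for MAP2K1 and -0.14 to 0.02 for MAP2K2 (glucose), -0.01 to 0.08 for BRAF, -0.04 to 0.06 for MAP2K2 and -0.11 to 0.11 for MAPK3 (1 ng/mL against vehicle), -0.08 to 0.15 for BRAF and -0.01 to 0.14 for MAPK3 (10 ng/mL against vehicle), and -0.09 to 0.10 for BRAF and -0.01 to 0.07 for MAP2K2 (10 against 1 ng/mL). Interactions ranged from -0.59 to 0.07 for BRAF and -0.04 to 0.72 for MAP2K2 (glucose), -0.20 to 0.04 for MAP2K2 and -0.16 to 0.11 for MAPK3 (1 ng/mL against vehicle), -0.17 to 0.19 for BRAF, -0.02 to 0.04 for MAP2K2 and -0.0013 to 0.12 for MAPK3 (10 ng/mL against vehicle), and -0.22 to 0.05 for BRAF and -0.02 to 0.17 for MAP2K2 (10 against 1 ng/mL).

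Stromal ARAF at 1 ng/mL insulin ranged from 0.16 to 0.38 with 1 replicate left out, with 0 to 1 of the 5 genes called. The listed genes called ranged from 0 to 1 for glucose in either cell type and in its interaction, for 1 ng/mL insulin against vehicle in either cell type and in its interaction, for 10 ng/mL insulin against vehicle in stromal cells and in its interaction, and for 10 against 1 ng/mL insulin in stromal cells. Higher in stromal cells, they ranged from 5 to 8 at 5 mM and from 0 to 15 at 50 mM glucose. Higher in epithelial cells, they ranged from 0 to 15 at 50 mM glucose and from 19 to 21 with 10 ng/mL insulin. Depth limits the low-count neighbours SYN1 and CFP and the scaffold KSR2, where 3 reads correspond to 0.180 to 0.340 CPM. In the remaining settings the direction and the side of the threshold held for 410 values of ARAF, cell type levels and counts of calls. Among values of that kind, 44 moved, 2 were reversed and 3 were stronger. For the other genes 337 values held, 26 were reversed and 1 moved.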
